A study of Rattus norvegicus with 8 samples.

Results

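The genes described here are markers and receptors of microglia, the resident macrophages of the brain, together with complement genes. There are 10 of them: Aif1, Cd68, Csf1r, Cx3cr1, Itgam, Tyrobp, Cd14, C1qa, C1qb and C3. They were taken by name, as every array probe that carries 1 of these gene names, which gave 14 of the 41012 distinct probes of the array. The rule uses names and no measured value, though the genes were picked for description with earlier results of these data known. The rats were male Sprague-Dawley, conscious during the sessions, and the tissue was the medial thalamus. In 1 group of 4 rats the trachea was occluded repeatedly for a few breaths at a time, in a session each day for 10 days, and in the other group 4 surgical control rats went through sessions without occlusions. All 8 rats were killed shortly after the last session, so both groups share the surgery and the daily handling. Each rat gave 1 Agilent whole-rat array, hybridised with Cy3-labelled RNA of the whole dissected tissue. The study compared the groups to see how occlusion conditioning changes gene expression in this part of the thalamus.

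Microglia depend on the receptor CSF1R for their survival, read neuronal CX3CL1 through CX3CR1, and carry adaptor and adhesion proteins that couple surface receptors to phagocytosis. In the complement cascade, C1Q binds a surface and starts the classical pathway. The pathway then cleaves C3, whose fragments are bound by the receptor that ITGAM forms with ITGB2. In the brain, microglia are the chief source of C1Q, and C1Q and C3 are known from mouse work to tag synapses for removal by microglia.

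The probes are 60-base oligonucleotides, and those that carry the results below are shown first, in the direction in which the array's design gives them. Positions are those of the array files (rat assembly rn3), and no annotation of that assembly was used here, so exons are not stated. The 2 probes of C1qa lie on chromosome 5 at 155672617-155672676 and 155672806-155672865, and that of C1qb lies on the same chromosome at 155657575-155657634. The Csf1r probe that gave a signal spans 57177463-57178164 on chromosome 18, and the Itgam probe spans 187534913-187535446 on chromosome 1. Tyrobp probe 1 lies on chromosome 1 at 85447221-85447280. Tyrobp probe 2 lies 8 bases away at 85447153-85447212 and is listed in the opposite direction. The first 4 sequences are shown whole, and the other lines give 30 bases of a probe, with the polyadenylation signal AATAAA in capitals where the letters hold it.
C1qa probe 1: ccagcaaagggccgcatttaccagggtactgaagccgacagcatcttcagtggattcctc
C1qa probe 2: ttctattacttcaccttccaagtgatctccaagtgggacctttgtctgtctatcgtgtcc
Csf1r probe 2: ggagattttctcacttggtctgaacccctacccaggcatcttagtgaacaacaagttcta
Itgam: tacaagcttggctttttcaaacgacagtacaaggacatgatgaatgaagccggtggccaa
C1qb, last 30 bases: tgtagatgttacagaatgggtaAATAAAct
Tyrobp probe 1, last 30 bases: gctggAATAAAtatccacagagtgccctct
Tyrobp probe 2, first 30 bases: tctggaatgagtggatccgggcatcaggtt
Csf1r probe 1, first 30 bases: tttctccatcctattcccattttaaaaaac

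Among probes with a curated RefSeq accession and a known gene strand, 95.26% (7996 of 8394) ran along their gene. All 10 member probes of that kind did so too. The 10 include that of C3, which was placed on unassembled sequence, so its match says little. Aif1 and Tyrobp probe 1 had no strand to be compared with and are not among the 10. Tyrobp probe 2 is of another kind, named through an expressed sequence tag, and runs against its neighbour. Its signal of 79.8 to 149 on the occlusion arrays and 86.4 to 119 on the control arrays is therefore given apart from that of Tyrobp probe 1. The counts and medians over member probes below still include it. The remaining probes lie at 3715789-3716370 on chromosome 20 for Aif1, at 56495385-56495444 on chromosome 10 for Cd68 and at 125053829-125053888 on chromosome 8 for Cx3cr1. The probes of Cd14 lie at 29401636-29401695 and 29402416-29402475 on chromosome 18. The C3 probe was placed on unassembled sequence.

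A level is given below as the log2 of the background-subtracted signal minus the 75th percentile of that array, so that 0 is the array's upper quartile and 1 unit is a doubling. Levels of different probes are not comparable, because each probe hybridises with its own efficiency. Of the 14 member probes, 13 stood well above background on 4 or more arrays and entered the fit with 27154 probes in all. The probe left out is Csf1r probe 1, which was at background on all 8 arrays (none of its spots passed the scanner's test). Across the arrays 65.0 to 71.6% of spots were well above background and 1.05 to 1.55% were saturated, and none of the saturated spots was a member's. The arrays lay on 2 slides, scanned separately, with occlusion 1 and 3 and control 1 and 4 on slide 1 and the other 4 on slide 2. As the RNA came from whole tissue, fewer microglia and less RNA per cell cannot be told apart. The 8 values of each member probe are plotted below by group and slide.

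**Figure D1:**
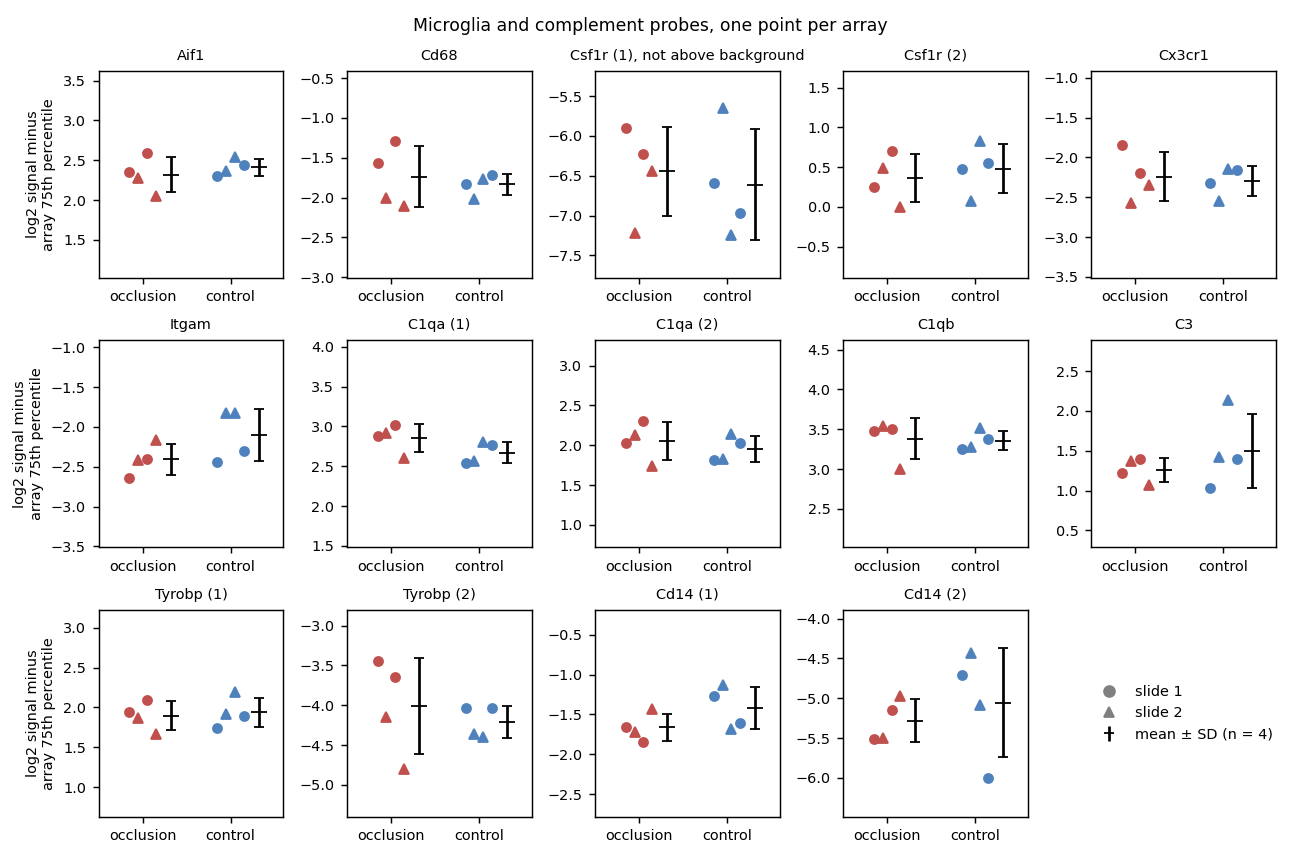
Level of each member probe on every array (log2 signal minus the array's 75th percentile), with occlusion arrays in red on the left and control arrays in blue on the right of each panel. Circles are arrays of slide 1, triangles are arrays of slide 2, and bars show mean ± SD (n = 4 per group); each panel spans its own range of levels. In every panel the 2 groups overlap.

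No member differed between occlusion and control rats beyond the spread of the animals. At an adjusted p under 0.05 (limma, Benjamini-Hochberg over all 27154 probes) 0 of the 13 member probes were called, and 0 probes of the whole array (0%). Members had adjusted p-values of 0.545 to 0.969, and the smallest on the array was 0.403. At an unadjusted p under 0.05 the count of members was again 0 of 13, where 11.1% of all probes (3010) passed, 6.48% higher and 4.61% lower. The 4 occlusion values overlapped the 4 control values for all 13 member probes, while 6.71% of all probes had groups that did not overlap, 3.9% with occlusion rats higher and 2.82% with them lower. Of the member probes, 6 were higher by any amount on the occlusion arrays and 7 lower, against 53.6% of all probes higher. Their median difference was -0.04 (occlusion minus control, log2), beside 0.02 over all probes. Single differences ran between -0.31 for Itgam and 0.20 for Tyrobp probe 2, the probe of opposite direction, with C1qa probe 1 next at 0.18. In size the median difference was 0.118 for members and 0.169 for all probes, and 12 of the 13 lay within 0.25. The spread within groups was much as elsewhere on the array, with a median pooled SD of 0.253 for members and 0.245 for all probes.

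**Figure D2:**
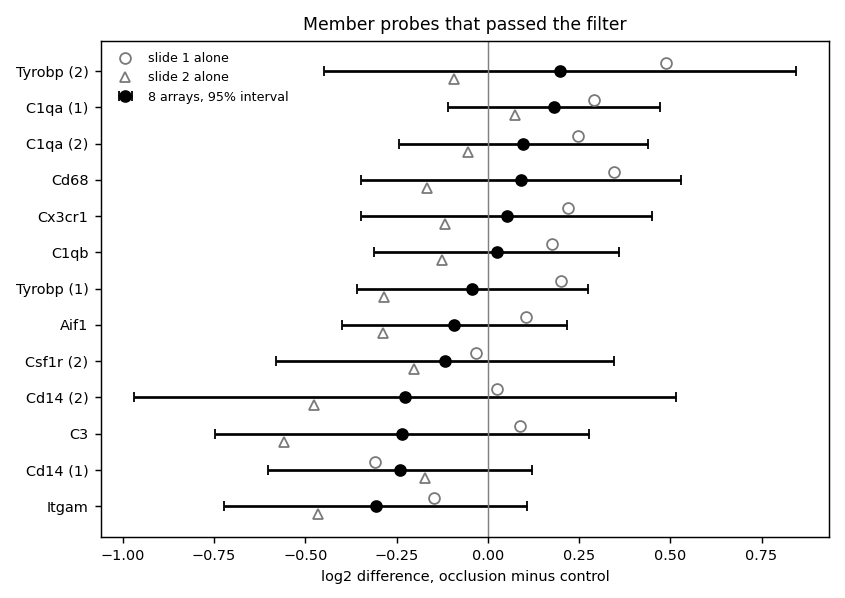
Log2 difference (occlusion minus control) of the 13 member probes that entered the fit, with the 95% interval over the 8 arrays (filled points and bars) and the difference within each slide (open symbols). Every interval includes 0, and 9 of the 13 probes have slide differences of opposite sign.

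The complement genes were read with 4 probes. C1qa encodes the A chain of C1Q, the recognition molecule of the classical pathway. Its probe 1 had levels of 2.88, 2.92, 3.02 and 2.60 on occlusion arrays 1 to 4, against 2.54, 2.57, 2.81 and 2.77 on control arrays 1 to 4. Occlusion 1 to 3 stood above all 4 control arrays and occlusion 4 lay among the controls. The means were 2.85 ± 0.18 in occlusion rats and 2.67 ± 0.14 in control rats (SD, n = 4 each), a difference of 0.18 with an SE of 0.13 and a 95% interval of -0.11 to 0.47 (limma, adjusted p = 0.610). Probe 2 of C1qa, upstream of probe 1 in the direction of the gene, averaged 2.05 ± 0.24 in occlusion rats and 1.95 ± 0.16 in control rats, a difference of 0.10. After the mean of each slide was subtracted, the 2 probes moved together over the 8 arrays (r = 0.932, a description). Both were read on the same arrays and share each array's scale, and the part of that scale in their variation was not tested.

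C1qb encodes the B chain of C1Q, and its gene lies near C1qa on the same chromosome. Its levels were 3.48, 3.54, 3.51 and 3.00 on the occlusion arrays and 3.25, 3.28, 3.52 and 3.38 on the control arrays. Occlusion 4 was the lowest of all 8 arrays, and the other 3 occlusion arrays fell at the top of the control range or just past it. The difference of the means was 0.02 (SE 0.15, 95% interval -0.31 to 0.36, limma adjusted p = 0.969). C1qc, the third chain of C1Q and not a member, differed by 0.02 (SE 0.11) at its brighter probe and by -0.03 at the other, so none of the 3 chains differed by as much as 0.25 at any probe.

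C3 is the protein on which all complement pathways converge. Its levels were 1.22, 1.38, 1.39 and 1.07 on the occlusion arrays, against 1.04, 1.42, 2.14 and 1.39 on the control arrays. Control 3 stood far above every other array, while control 1 was the lowest of all. The groups averaged 1.26 ± 0.15 in occlusion rats and 1.50 ± 0.46 in control rats, and the difference of -0.23 had a 95% interval of -0.75 to 0.28 (limma, adjusted p = 0.719). Without control 3 it was -0.02.

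Of the surface receptors, Csf1r encodes the receptor for CSF1 and IL-34. Its probe 2 had levels of 0.25, 0.49, 0.70 and 0.00 on the occlusion arrays and 0.47, 0.07, 0.82 and 0.55 on the control arrays. Each group held high and low arrays, and the difference was -0.12 (SE 0.20, limma adjusted p = 0.863). The other Csf1r probe gave signals of 10.6 to 27.2 on the occlusion arrays and 12.6 to 35.2 on the control arrays, none of them well above background, so that no comparison could be made there.

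Cx3cr1 encodes the fractalkine receptor, through which microglia receive a restraining signal from neurons. It had levels of -1.85, -2.57, -2.19 and -2.35 on the occlusion arrays, against -2.33, -2.55, -2.14 and -2.16 on the control arrays. Occlusion 1 was the highest and occlusion 2 the lowest of the 8 arrays. The difference was 0.05 (SE 0.17, 95% interval -0.35 to 0.45, limma adjusted p = 0.941).

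Itgam encodes the alpha chain of complement receptor 3 (CD11b). It showed the widest difference among the members, with levels of -2.65, -2.42, -2.40 and -2.16 on the occlusion arrays and -2.45, -1.83, -1.82 and -2.30 on the control arrays. Control 2 and 3 were the highest, and control 1 and 4 lay within the range of the occlusion arrays. The means were -2.41 ± 0.20 in occlusion rats and -2.10 ± 0.32 in control rats, a difference of -0.31 with an SE of 0.18 and a 95% interval of -0.72 to 0.11 (limma, adjusted p = 0.545). That is a fold of 0.808, and 26.6% of all probes had a difference of more than 0.3 in size. With the slide as a block the unadjusted p for Itgam was 0.0407 and the adjusted p 0.337 (limma). In that fit it was the only 1 of 13 member probes under 0.05 before adjustment, where 14.2% of all probes passed.

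Cd14 encodes the co-receptor that hands lipopolysaccharide to TLR4. Its probe 1 had levels of -1.66, -1.72, -1.84 and -1.44 on the occlusion arrays and -1.27, -1.13, -1.68 and -1.61 on the control arrays. Control 1 and 2 stood above all occlusion arrays, and the difference was -0.24 (SE 0.16, 95% interval -0.60 to 0.12, limma adjusted p = 0.587). Probe 2 was dim, well above background on 2 of 4 occlusion arrays and 3 of 4 control arrays, and its difference of -0.23 had an interval of -0.97 to 0.52, the lowest bound of any member. Without control 2 the difference of that probe was -0.02, and without control 4 it was -0.54, while that of probe 1 stayed between -0.33 and -0.14 as each array was left out.

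Tyrobp encodes DAP12, the adaptor through which TREM2 and other receptors signal. Its probe 1 had levels of 1.95, 1.87, 2.10 and 1.66 on the occlusion arrays, against 1.75, 1.91, 2.19 and 1.89 on the control arrays. The groups covered nearly the same range, and the difference was -0.04 (SE 0.14, limma adjusted p = 0.939). The probe of opposite direction differed by 0.20 with an interval of -0.45 to 0.85, the highest bound of any member. As the bounds of all 13 intervals ran from -0.97 to 0.85, every interval left out a doubling and a halving of the level.

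Aif1 encodes IBA1, the calcium-binding protein most used to stain microglia. Its levels were 2.36, 2.28, 2.60 and 2.06 on the occlusion arrays and 2.30, 2.36, 2.54 and 2.44 on the control arrays. The highest and the lowest of the 8 arrays were both occlusion arrays, and the difference was -0.09 (SE 0.13, 95% interval -0.40 to 0.22, limma adjusted p = 0.833). Cd68 encodes a lysosomal membrane protein of phagocytes. It had levels of -1.56, -2.0, -1.29 and -2.11 on the occlusion arrays and -1.82, -2.02, -1.76 and -1.72 on the control arrays. The 2 occlusion arrays of slide 1 stood above all others, and the 2 of slide 2 lay at the low end, so that the SD was 0.38 in occlusion rats and 0.13 in control rats. The difference was 0.09 (SE 0.19, limma adjusted p = 0.896).

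The sign of a member's difference often turned with the slide, as the plot of differences shows. On slide 1 alone 10 of the 13 probes were higher in occlusion rats, with a median difference of 0.18 beside 0.05 over all probes. On slide 2 alone 1 of 13 was higher, with a median of -0.17 beside -0.01 over all probes. C3 differed by 0.09 on slide 1 and -0.56 on slide 2, Tyrobp probe 1 by 0.20 and -0.29, and Cd68 by 0.35 and -0.17. In all 9 of 13 member probes had opposite signs on the slides (69.2%). Over the 27093 probes with a value in each group on both slides the share was 38.5%. The 13 probes come from 10 genes, with 2 probes each for C1qa, Tyrobp and Cd14. Most of these genes also varied together over the arrays, so the probes are not independent readings. Each slide held 2 arrays of a group, and groups that small fail to overlap for 42.2% and 43.1% of all probes. The member probes that did not overlap numbered 7 of 13 on slide 1 and 4 of 13 on slide 2. Whether the difference itself was unequal on the slides was tested with a slide-by-group interaction, added after these values were seen. It called 0 of 13 member probes and 0 of 26054 probes (limma, smallest adjusted p 0.957). At an unadjusted p under 0.05 it passed 0 member probes and 4.31% of all probes.

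Most members shared their high and low arrays. With the brightest probe of each gene, occlusion 4 was the lowest of its group for 7 of the 10 genes (Aif1, Cd68, Csf1r, C1qa, C1qb, C3 and Tyrobp) and occlusion 3 the highest for 6. Among the controls, control 3 was the highest for 8 genes and control 1 the lowest for 6. The mean level of the 10 genes was 0.44, 0.38, 0.56 and 0.23 on occlusion arrays 1 to 4 and 0.35, 0.41, 0.66 and 0.46 on control arrays 1 to 4. The highest and the lowest single arrays thus came from different groups, and the 2 ranges overlapped. The occlusion arrays with the extreme values also differed in overall brightness, which all levels share as their scale. The 75th percentile of the signal was 2216 on occlusion 4 and 1439 on occlusion 3, the highest and the lowest of the 8 arrays. It was 1919 on control 3 and 1861 on control 1, the highest and the lowest controls by mean level of the members. On control 2 and control 4 it was 1771 and 1953. The part of brightness in the shared pattern was not tested.

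**Figure D3:**
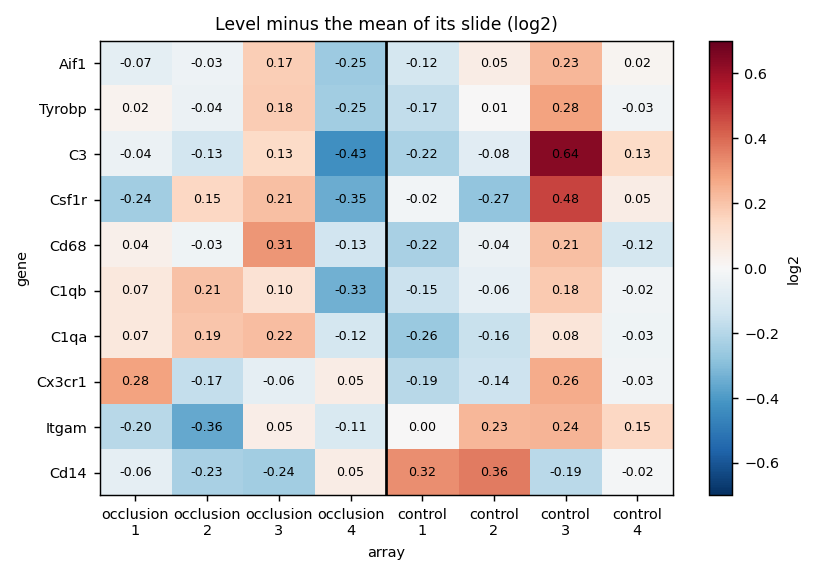
Level of each member gene (brightest probe, log2) minus the mean of its slide, with the 4 occlusion arrays on the left and the 4 control arrays on the right of the black line. The column of control 3 is above the slide mean for 9 genes and that of occlusion 4 below it for 8, and Cd14 runs against the other genes on control 3.

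After subtraction of the slide means, Aif1, Tyrobp, C3, Csf1r, Cd68, C1qb and C1qa were positively correlated over the 8 arrays in all 21 of their pairs. Their r ran from 0.455 to 0.957 with a median of 0.745. These 7 genes were set apart after their values had been seen, all 8 arrays share the scaling described above, and the correlations are descriptions without a test. The closest pair was Aif1 and Tyrobp (r = 0.957), followed among those with C3 by C3 and Tyrobp (r = 0.917), while the chains C1qa and C1qb had r = 0.795. Cd14 ran the other way and was negatively correlated with each of the 7, from -0.936 with C1qa to -0.425. Both Cd14 probes shared that variation in part (r = 0.676 between them). Over all 45 pairs of the 10 genes 35 were positive, with a median r of 0.477.

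Among 21931 genes outside the members with values on all arrays, those most like the mean of the 10 genes were Kcns1, a modulatory potassium channel subunit (r = 0.995), an expressed sequence without a gene name (r = 0.991), Dmkn (r = 0.991), Susd3 (r = 0.990) and Fosl2, an AP-1 transcription factor (r = 0.984). None of these was on a list of microglial genes. With 8 arrays, 799 genes had an r over 0.8, and the median over all genes was 0.046. By list, the median r was 0.583 for 13 homeostatic microglial genes, 0.461 for 19 myeloid genes and 0.678 for markers of the reticular nucleus and GABA neurons. It was -0.582 for markers of thalamic relay neurons and -0.498 for endothelial markers. The arrays with high member levels thus also differed in markers of neurons and vessels, and the part of these in the shared pattern was not tested.

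Of the 10 members, 8 have a promoter in the RefSeq table used (assembly GRCr8), of which the 250 bases before the gene's start were searched. Genes of the macrophage lineage are commonly bound by PU.1 (Spi1). Of its motif 1 form, GAGGAA, was looked for on both strands. It was found for Cd68, Csf1r, Itgam, C1qb and Cd14, which is 62.5% of the 8, against 23.3% of 33469 promoters. The longer form GAGGAAGT, which contains GAGGAA, was found for 0 of the 8 and in 2.04% of all. The genes C1qa and C1qb lie near each other and their levels moved together, but they differ in exact matches to GAGGAA. Other forms of the motif were not searched for, so C1qa is not shown to lack a PU.1 site. Their promoters are shown 5′ to 3′ along the minus strand of chromosome 5, with GAGGAA on either strand in capitals. The positions are GRCr8 154419934-154420183 for C1qa and 154407828-154408077 for C1qb. These matches describe letters in a window and not binding.
C1qa promoter: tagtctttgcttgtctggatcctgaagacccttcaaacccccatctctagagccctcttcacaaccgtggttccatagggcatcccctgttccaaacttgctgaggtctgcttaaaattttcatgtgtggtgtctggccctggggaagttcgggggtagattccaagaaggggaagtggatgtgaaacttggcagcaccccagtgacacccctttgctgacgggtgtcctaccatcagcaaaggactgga
C1qb promoter: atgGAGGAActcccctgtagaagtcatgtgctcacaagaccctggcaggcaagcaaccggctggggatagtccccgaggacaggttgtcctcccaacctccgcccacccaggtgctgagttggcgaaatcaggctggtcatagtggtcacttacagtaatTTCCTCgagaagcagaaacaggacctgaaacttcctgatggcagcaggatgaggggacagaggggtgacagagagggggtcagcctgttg

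Other genes of the same cells and pathways were taken from 8 lists of 134 genes, of which 120 were matched on the array and 93 passed the filter. Of the 93, 0 passed at an adjusted p under 0.05 (limma, smallest 0.403). At an unadjusted p under 0.05, 1 was higher and 9 lower in occlusion rats, which is 1.08% and 9.68%. Among 22932 named or unnamed genes with 1 probe each, 6.44% were higher and 4.47% lower at that level. By any amount 32 were higher and 61 lower, with a median of -0.09, against 54.1% of all genes higher and a median of 0.02. The slides differed in this, with a median over the lists' probes of 0.00054 on slide 1 alone and -0.20 on slide 2 alone. The groups did not overlap for 8 of the 93 (8.60%), near the 6.71% of all probes.

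Homeostatic microglial genes numbered 13, of which 4 were higher and 9 lower, with a median difference of -0.13 and 1 at an unadjusted p under 0.05. P2ry12, the ADP receptor of resting microglia, had levels of 0.94, 0.92, 1.18 and 1.12 on the occlusion arrays and 1.13, 1.11, 1.37 and 1.13 on the control arrays. Its difference was -0.15 (SE 0.11), and that of Tmem119, another microglial marker, was -0.15 (SE 0.29). At the high end of the list stood P2ry13 at 0.28 (SE 0.15) and Csf3r at 0.38 (SE 0.36). The Csf3r probe was dim, well above background on 3 occlusion arrays and 1 control array. On the low side stood Slc2a5 at -0.32 (SE 0.21) and Tgfbr1 at -0.64 (SE 0.27), whose other probes differed by -0.24 and -0.18.

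Of 20 myeloid lineage and signalling genes, 5 were higher and 15 lower, with a median of -0.06, 0 higher and 2 lower at an unadjusted p under 0.05. The 2 lower genes were Tspo, the mitochondrial protein imaged as a marker of glial reaction, and Cd48, a surface ligand of leukocytes. Tspo had levels of -1.49, -1.58, -2.02 and -1.64 on the occlusion arrays, all below the -1.29, -1.27, -0.89 and -1.44 of the control arrays, a difference of -0.46 (SE 0.16, limma adjusted p = 0.403). Cd48 differed by -0.57 (SE 0.19, limma adjusted p = 0.403), also without overlap. Ncf1, a subunit of the phagocyte oxidase, differed by 0.24 (SE 0.13) and Plcg2 by 0.23 (SE 0.22). Itgb2, the partner chain of Itgam, differed by -0.25 (SE 0.12) without overlap of the groups and was singled out after its value was seen.

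Genes of activated and phagocytic microglia numbered 14, of which 4 were higher and 10 lower with a median of -0.24, and 3 were lower at an unadjusted p under 0.05. Spp1, osteopontin, had the widest difference of the list, with levels of -1.98, -0.78, -3.74 and -1.04 on the occlusion arrays and 2.06, 1.68, 3.08 and -2.22 on the control arrays. Control 1 to 3 stood far above the rest and control 4 among the occlusion arrays. The difference of -3.04 (SE 1.14) did not pass the adjusted threshold (limma, adjusted p = 0.411). With slide means subtracted, the r of Spp1 with the members' mean was 0.181, beside a median of 0.324 over 13 genes of the list. The cells that gave its signal were not identified. Cd9, a tetraspanin also made by oligodendrocytes, had levels of 0.01, -0.07, -0.67 and -0.04 on the occlusion arrays, all below the 0.54, 0.43, 0.90 and 0.17 of the control arrays, a difference of -0.70 (SE 0.20, limma adjusted p = 0.403). Trem2, a receptor that signals through the Tyrobp product, differed by 0.07 (SE 0.16). Apoe and Ctsb were saturated on all 8 arrays, so their differences are bounded by the scanner.

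In the complement cascade, the 11 initiation and convertase genes had 4 higher and 7 lower, a median of -0.18, and 1 lower at an unadjusted p under 0.05. That was Masp1, a lectin pathway protease, at -0.27 (SE 0.10), while its other probes differed by -0.05 and -0.17. C2, which the classical and lectin pathways cleave, differed by -0.30 (SE 0.13). At the high end stood Cfd, the protease of the alternative pathway, at 0.15 (SE 0.18) and Fcnb, a ficolin, at 0.20 (SE 0.49). Of 7 terminal complement genes only 2 passed the filter, C8g at 0.18 (SE 0.16) and C8b at 0.05 (SE 0.82). Among 11 regulators and receptors, 1 was higher and 1 lower at an unadjusted p under 0.05, with a median of -0.03. Cd46, a membrane cofactor, differed by 0.44 (SE 0.13, limma adjusted p = 0.403) without overlap, at a dim probe that was well above background on 3 occlusion arrays and 1 control array. Vtn, vitronectin, differed by 0.27 (SE 0.13). Serping1, the C1 inhibitor, had levels of 0.30, 1.30, 0.24 and 0.38 on the occlusion arrays and 1.64, 1.67, 2.03 and 0.52 on the control arrays, a difference of -0.91 (SE 0.36), and its other probe differed by -0.36.

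The ligands of the member receptors and the partners of CD14 had 5 of 13 higher and 8 lower, a median of -0.09, and 0 at an unadjusted p under 0.05. Csf1, a ligand of CSF1R, differed by -0.60 (SE 0.45), with occlusion 1 at -0.84 and the other 7 arrays between 1.10 and 1.58, and by -0.08 at its other probe. Cx3cl1, the neuronal ligand of CX3CR1, differed by 0.08 and was saturated on 6 arrays, and Tlr4 differed by -0.10 (SE 0.16). Of its partners, Ly96 (MD-2) differed by 0.20 (SE 0.20), Traf6 by 0.26 (SE 0.28) and Irak4 by -0.48 (SE 0.22), and Tlr3 differed by -0.28 (SE 0.13). Of 17 inflammatory mediators 9 passed the filter, and 8 did not, among them Il6, Tnf, Il1a, Ccl2 and Nos2. Of the 9, 3 were higher and 6 lower with a median of -0.09. Ptgs2, the inducible cyclooxygenase that neurons also make, differed by -0.78 (SE 0.33) and Il18 by -0.42 (SE 0.25), while Tgfb1 differed by 0.25 (SE 0.17) and Ccl5 by 0.26 (SE 0.46).

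**Figure D4:**
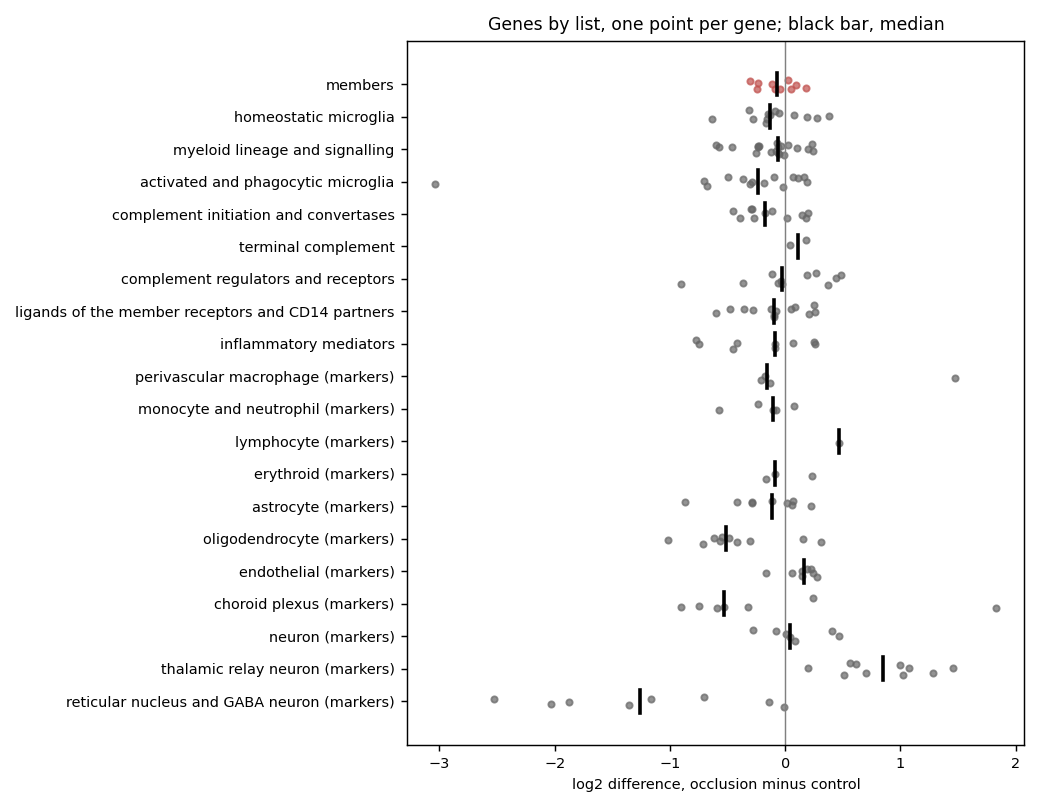
Log2 difference (occlusion minus control) of the members and of each list, 1 point per gene (brightest probe that passed the filter), with the list's median as a black bar. The medians of the 8 microglial, complement and related lists lie between -0.24 and 0.11, and 61 of their 93 genes are lower in occlusion rats. Single genes lie farther out, such as Spp1 at -3.04. Relay neuron markers lie to the right and reticular and GABA neuron markers to the left.

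Markers of other cells were set beside these values. Of 9 lymphocyte markers matched, 1 passed the filter and 5 were well above background on no array. Of 10 markers of monocytes and neutrophils, 4 were well above background on all 8 arrays and 4 on none, and the 5 that passed had a median difference of -0.11. Of 3 erythroid markers, 2 were well above background on all 8 arrays, with a median difference of -0.09 over the 3. Cd163, a marker of perivascular macrophages, was well above background on 0 of 8 arrays. Mrc1, of the same cells, differed by -0.18 (SE 0.19). Ptprc, the leukocyte antigen CD45, was well above background on at most 2 arrays and Cd3e, of T cells, on 1. S100a9, of neutrophils and monocytes, differed by -0.24 (SE 0.66), Gfap, of astrocytes, by -0.42 (SE 0.32), Cldn5, of endothelium, by 0.19 (SE 0.11) and Ttr, of the choroid plexus, by 1.83 (SE 0.69), none of them past the adjusted threshold. The choroid plexus list as a whole had 2 genes higher and 5 lower, with a median of -0.53, and 1 higher and 3 lower at an unadjusted p under 0.05. All 10 relay neuron markers were higher in occlusion rats, 6 of them at an unadjusted p under 0.05, with a median of 0.85. All 8 reticular nucleus and GABA neuron markers were lower, 3 of them at that level, with a median of -1.26. Summed on the linear scale in units of the array's 75th percentile, the relay markers reached 93.3 to 134 on the occlusion arrays and 68.1 to 105 on the control arrays. The reticular and GABA markers reached 4.49 to 43.0 on the occlusion arrays and 18.7 to 53.8 on the control arrays. Oligodendrocyte markers had a median of -0.52, with 2 of 10 higher and 8 lower, and 1 higher and 6 lower at an unadjusted p under 0.05. The 7 of them with a value on every array summed to 68.9 to 91.2 on the occlusion arrays and 72.7 to 101 on the control arrays. In the relay and the oligodendrocyte list 3 markers each were saturated on some array, so the scanner limits their sums. The part of these in the members' values was not tested. None of the members moved with the groups by as much as the medians of these 3 lists.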

How the data were processed

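Each of the 8 rats gave 1 array. Per the file headers, the authors scanned 1 channel and used Agilent Feature Extraction 9.5.1.1, which gave a processed intensity per spot, background-subtracted and linear. The deposited table of all arrays, also an intensity, differed from it by under 0.5%. Control spots were left out, log2 processed signal minus each array's 75th percentile was taken, spots flagged as outliers were dropped and spots of a probe averaged. The filter asked for 4 of 8 arrays well above background, regardless of group, and 2 values per group. Groups were compared with limma 3.58.1 in R 4.3.3 (lmFit, eBayes, two-sided, Benjamini-Hochberg, threshold 0.05). Slide means were subtracted before correlations.

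Members and lists were chosen with earlier results of these data known. In the lists, genes were named by RefSeq accession (10735 probes), symbol (5571), synonym (3729) or the name in the files (20977), and the brightest kept probe stood for a gene. Named were every member probe, in each microglial and complement list the 2 kept genes highest and the 2 lowest by moderated t (those of the other cells' lists are not named), fixed defining markers, and the 5 genes most like the members' mean. C4b, Il34 and Hba-a1, among those markers, were not matched. Of the genes so named, 1 is not reported here. A number shared between groups was not taken to pair animals, since same-numbered arrays deviated with r of -0.29 to 0.51. The design text speaks of a reference design, but the arrays were analysed in their 1 channel. The number of arrays limits the precision. The fit was tested on simulated data with shifts far larger than any member's difference, so that test does not speak to changes of the members' size.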

Additional observations from a re-analysis of the deposited data

Results flagged for a closer look

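In 186 groups of 4 arrays tested, 12 had 1 array far from the other 3, and chance gives such a flag in about 1 of 20 groups. Among the members it was C1qb on occlusion 4, at 3.00 where the other occlusion arrays lay between 3.48 and 3.54. The others, as log2 levels, were P2ry12 at 1.37 and Fgfr3 at -1.64 on control 3, Gfap at -0.21 and Aqp4 at -1.07 on control 4, and Csf1 at -0.84 and S100a8 at -2.82 on occlusion 1. On occlusion 2 they were Serping1 at 1.30 and Cldn5 at 2.77. On occlusion 3 they were Cd9 at -0.67, Tek at -3.45 and Ecel1 at -3.41.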

How the results depend on the processing

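No member passed the adjusted threshold under any alternative run. Over all probes the count was 0 under each alternative apart from normexp background correction, which gave 1. With the replicate number as a block, 0 of 26054 probes passed (smallest adjusted p 0.451). The slides gave other values for the members. On slide 1 alone 7 of 13 member probes did not overlap, where 42.2% of all probes did not. On slide 2 alone 4 of 13 did not, where 43.1% of all probes did not. The median difference over member probes was 0.18 on slide 1 and -0.17 on slide 2. The lists' median over probes, -0.09 over 8 arrays, was 0.00054 on slide 1 and -0.20 on slide 2. Leaving out 1 array in turn gave 0 to 1 members without overlap (1 without occlusion 4, where 15.3% of all probes did not overlap, or without control 1, where 8.60% did not), a member median of -0.11 to 0.04 and a lists' median of -0.15 to -0.06. Signs turned for C1qb after quantile normalisation (-0.0095) and with array weights for C3 (0.034) and Tyrobp probe 1 (0.065). On slide 1 alone they turned for Aif1 (0.10), C3 (0.089), Tyrobp probe 1 (0.20) and Cd14 probe 2 (0.024). On slide 2 alone they turned for Cd68 (-0.17), Cx3cr1 (-0.12), C1qa probe 2 (-0.054), C1qb (-0.13) and Tyrobp probe 2 (-0.091). Leaving out 1 array in turn, the differences that turned sign ran from -0.079 to 0.16 for Cx3cr1, -0.028 to 0.15 for C1qb, -0.060 to 0.21 for Cd68, -0.25 to 0.0029 for Csf1r probe 2 and -0.11 to 0.042 for Tyrobp probe 1. The others ran from -0.18 to -0.0028 for Aif1, -0.42 to -0.21 for Itgam, 0.13 to 0.27 and 0.011 to 0.20 for C1qa probes 1 and 2, -0.39 to -0.020 for C3, 0.011 to 0.46 for Tyrobp probe 2, and -0.33 to -0.14 and -0.54 to -0.019 for Cd14 probes 1 and 2. The cause of these changes was not tested. The other 262 member values kept their direction and side of the threshold, though not always their size. Cd14 probe 2 and Tyrobp probe 2 were dim, and signal over background limits them.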
